A study of Mus musculus with 6 samples.

Results

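Laminin chain genes were followed in 266.6 cells, a mouse pancreatic acinar tumour line, as every row of the expression table whose symbol is Lama, Lamb or Lamc followed by a single digit. Of 20596 rows with a gene symbol, 8 met this rule: the alpha chains Lama3, Lama4 and Lama5, the beta chains Lamb1, Lamb2 and Lamb3, and the gamma chains Lamc1 and Lamc3. Other laminin chain genes were not analysed here. The 3 libraries named CAF_CM came from 266.6 cells given medium conditioned by cancer-associated fibroblasts for up to 40 days, and the 3 control libraries came from 266.6 cells labelled control. Both groups are the same tumour line in serum-supplemented DMEM, and no added allele is named. The labels carry 1 treatment note for both groups and give no separate time for the control cells, so conditioned medium and time in culture cannot be told apart. Nothing in the labels ties replicates to separate cultures, and p-values therefore measure only the spread among these 6 libraries, possibly a technical one. The libraries held 18622370 to 21002226 reads.

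Laminins are cross-shaped heterotrimers of an alpha, a beta and a gamma chain and are the chief cell-binding proteins of basement membranes. The 3 chains coil together in the endoplasmic reticulum: beta and gamma chains pair first and stay in the cell until an alpha chain joins them. The short arms of the chains link laminins into a sheet, and the globular domains at the end of the alpha chain bind integrins and dystroglycan. A trimer is named by its chain numbers, so that the chains of Lama5, Lamb1 and Lamc1 form laminin 511, and those of Lama5, Lamb2 and Lamc1 form laminin 521. Laminins 411 and 421 carry the chain of Lama4 instead. In epithelia, the pancreas included, the alpha 5 chain is the widespread alpha chain of adult basement membranes. The series title pairs it with integrin alpha 4. The libraries measure RNA of the acinar line and hold no value for laminin protein, whether made by these cells or carried in the medium.

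Up to 250 bases before the transcription start are shown for Lama5 and for Lamb1 and Lamb2, which encode beta chains of alpha 5 laminins. Capitals mark the GC box GGGCGG, searched on both strands (CCGCCC on the strand shown), the letters that SP1-type factors bind. Sequences are those of RefSeq on build GRCm38.p6, written 5′ to 3′ in the direction of transcription, and end where the GENCODE gene starts, if that is earlier than the RefSeq start. Of the 8 chain genes, 4 had a promoter window that was used here.
Lama5: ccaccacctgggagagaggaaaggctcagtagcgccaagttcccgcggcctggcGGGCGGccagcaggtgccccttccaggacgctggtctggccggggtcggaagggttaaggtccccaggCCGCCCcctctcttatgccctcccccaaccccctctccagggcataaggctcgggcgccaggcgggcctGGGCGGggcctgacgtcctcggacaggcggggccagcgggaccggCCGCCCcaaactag
Lamb1: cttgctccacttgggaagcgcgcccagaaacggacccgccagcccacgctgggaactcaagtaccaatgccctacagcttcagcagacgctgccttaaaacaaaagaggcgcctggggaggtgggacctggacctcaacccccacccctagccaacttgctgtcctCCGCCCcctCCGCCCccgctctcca
Lamb2: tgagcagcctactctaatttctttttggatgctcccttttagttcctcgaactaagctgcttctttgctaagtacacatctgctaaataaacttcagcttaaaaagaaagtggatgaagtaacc
The Lama5 stretch is chr2:180225860-180226109 on the minus strand, that of Lamb1 chr12:31265043-31265233 on the plus strand and that of Lamb2 chr9:108479612-108479735 on the plus strand. In the full 250 bases before the RefSeq start, Lama5 holds 4 GC boxes in 72.4% G and C, Lamb1 holds 2 in 62.0%, and Lamb2 holds 0 in 43.6%. The box occurs in 32.7% of all 32851 promoter windows of 250 bases, 2 or more in 16.7% and 3 or more in 8.47%. None of the 3 windows holds TATAAA on either strand, letters found in 12.4% of all windows.

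The Lama5 gene lies at 180176373 to 180225859 on the minus strand of chromosome 2 (GRCm38, GENCODE M21). It had 2162, 3597 and 2708 normalized counts in CAF_CM replicates 1, 2 and 3, against 3244, 3246 and 3192 in the control libraries. Normalized counts are the deposited values, read counts divided by a factor for each library. CAF_CM replicates 1 and 3 lay below all controls and CAF_CM replicate 2 above them, so the groups overlapped. In RNA of whole cultures, fewer cells that make a transcript and less of it per cell cannot be told apart. The mean was 2822 ± 724 normalized counts in CAF_CM and 3228 ± 30.4 in control libraries (SD, n = 3 each), a log2 fold change of -0.22 (SE 0.13, 95% interval -0.52 to 0.0665) that did not pass the test (adjusted p = 0.216, limma with Benjamini-Hochberg adjustment over 16169 genes, as for every adjusted p here). Without CAF_CM replicate 2 it was -0.42 and past the threshold of 0.05 (adjusted p = 0.00154), and without CAF_CM replicate 1 it was -0.0484 (adjusted p = 0.671).

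The spread of Lama5 was unequal between the groups. Its coefficient of variation was 25.7% in CAF_CM and 0.943% in control libraries, where counting alone gives 1.86% and 1.77%. The other 5 tested chains also varied more in CAF_CM libraries, from 10.6% for Lamc1 to 40.7% for Lamb3, against 3.81% for Lamc1 to 12.3% for Lamb3 in control libraries. Over all genes the biological coefficient of variation was 8.23% among CAF_CM and 2.20% among control libraries.

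Lama4 encodes the alpha chain typical of vessel, nerve and muscle basement membranes, which lacks most of the short arm. It had 264, 360 and 326 normalized counts in CAF_CM libraries, against 375, 431 and 386 in control libraries. Every CAF_CM library lay below every control library. Lama4 fell by 0.34 on the log2 scale (SE 0.11, 95% interval -0.58 to -0.0943, adjusted p = 0.0350), and its adjusted p was 0.0655 to 0.144 without CAF_CM replicate 1 or 3 or any single control library. Lama3, an alpha chain of skin and other stratified or glandular epithelia, had 3, 4 and 4 reads in CAF_CM libraries and 3, 1 and 2 in control libraries and was too low to test.

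Among the beta chains, Lamb1 rose and Lamb2 and Lamb3 did not pass the test. Lamb1, the beta chain of most embryonic and epithelial laminins, had 1293, 1706 and 1681 normalized counts in CAF_CM libraries, against 1184, 1220 and 1307 in control libraries. CAF_CM replicates 2 and 3 lay above every control, and CAF_CM replicate 1 lay just under the highest control. The log2 fold change was 0.32 (SE 0.0936, 95% interval 0.12 to 0.53, adjusted p = 0.0199). The adjusted p was 0.0892 when CAF_CM replicate 3 was left out, 0.0881 when control replicate 1 was, and 0.0698 when control replicate 2 was.

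Lamb2, the beta chain of laminins at the neuromuscular junction and the kidney filter, had 101, 174 and 107 normalized counts in CAF_CM libraries, against 169, 190 and 159 in control libraries. CAF_CM replicates 1 and 3 were low, and CAF_CM replicate 2 lay within the control range. The log2 fold change was -0.47 (SE 0.18, 95% interval -0.87 to -0.0779, adjusted p = 0.0626), and it was -0.72 without CAF_CM replicate 2 (adjusted p = 7.00e-04). Lamb3, a beta chain of the epithelial anchoring laminin, had 185, 304 and 139 normalized counts in CAF_CM libraries, against 254, 210.2 and 204 in control libraries. The CAF_CM libraries lay on both sides of the control range (log2 fold change -0.16, SE 0.22, adjusted p = 0.613). The value of Lamb3 was -0.47 without CAF_CM replicate 2 (adjusted p = 0.0199) and 0.0968 without CAF_CM replicate 3 (adjusted p = 0.743).

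Lamc1 encodes the gamma chain of nearly all laminins outside the epithelial anchoring type. It had 2085, 2510.0 and 2528 normalized counts in CAF_CM libraries, against 2042, 2166 and 2195 in control libraries. CAF_CM replicates 2 and 3 lay above every control and CAF_CM replicate 1 within the control range. The log2 fold change of 0.15 (SE 0.0722, 95% interval -0.00942 to 0.31) did not pass the test (adjusted p = 0.134) and did so without CAF_CM replicate 1 (0.24, adjusted p = 8.21e-04). Lamc3 had 0, 5 and 3 reads in CAF_CM libraries and 1, 1 and 4 in control libraries and was too low to test.

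**Figure D1:**
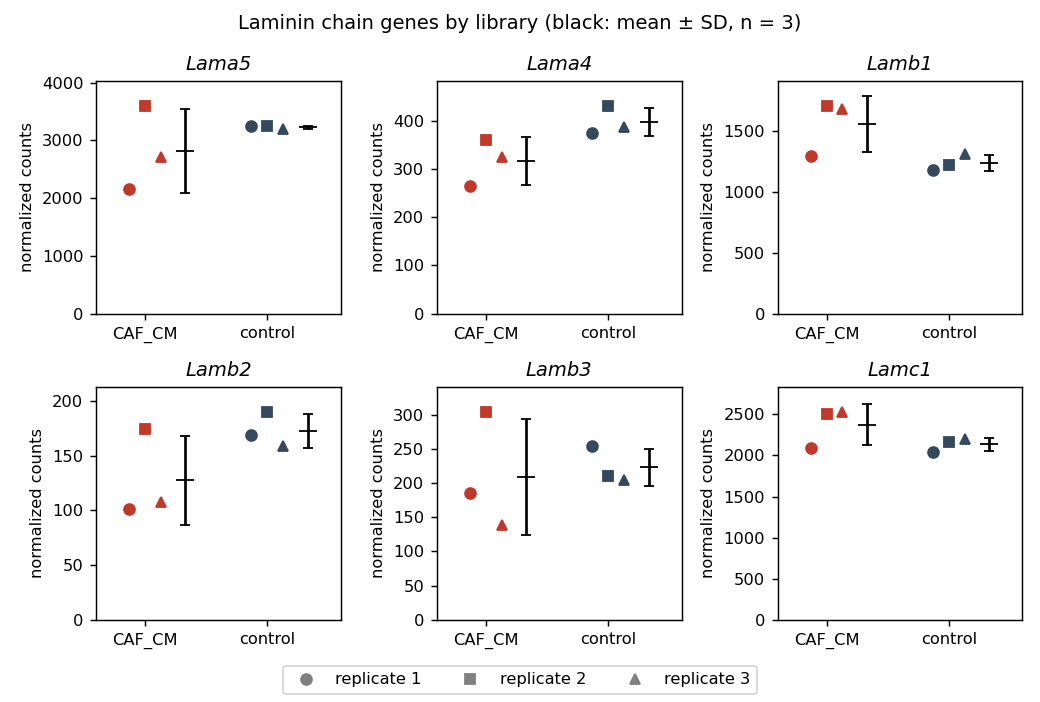
Normalized counts (vertical axes, from 0) of the 6 tested laminin chain genes in each CAF_CM library (red) and control library (dark blue), with the mean ± SD of 3 libraries in black. The CAF_CM libraries of Lama5 run from 2162 to 3597 around controls between 3192 and 3246, whereas every CAF_CM library of Lama4 lies under the controls.

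In all, 1 of 6 tested chains rose and 1 fell, where 34.4% of all genes tested were called, 18.3% higher and 16.1% lower. Of all called genes 53.2% were higher, and 41.2% when libraries were scaled by their totals alone. The groups did not overlap for 1 chain of 6, Lama4, against 47.7% of all genes tested, 24.8% higher and 22.9% lower. The share of called chains is near the background and is no result about the chains. The 6 chains are those that passed the filter on low values, and the others were too low to test.

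The order of the CAF_CM libraries was alike for most chains. CAF_CM replicate 2 was the highest treated library for 5 of the 6 chains and the lowest for none, while CAF_CM replicate 1 was the lowest for 5 of 6. Over all genes tested, replicate 2 was the highest treated library for 35.0% and replicate 1 the lowest for 35.3%. Relative to the mean of the controls, Lama5 stood at -0.58, 0.16 and -0.25 log2 units in CAF_CM replicates 1, 2 and 3, Lama4 at -0.59, -0.14 and -0.28, and Lamb2 at -0.76, 0.0192 and -0.68. Lamb1 stood at 0.0652, 0.46 and 0.44 and Lamc1 at -0.0329, 0.23 and 0.24, so these both lay higher in each treated library than Lama5 did.

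**Figure D2:**
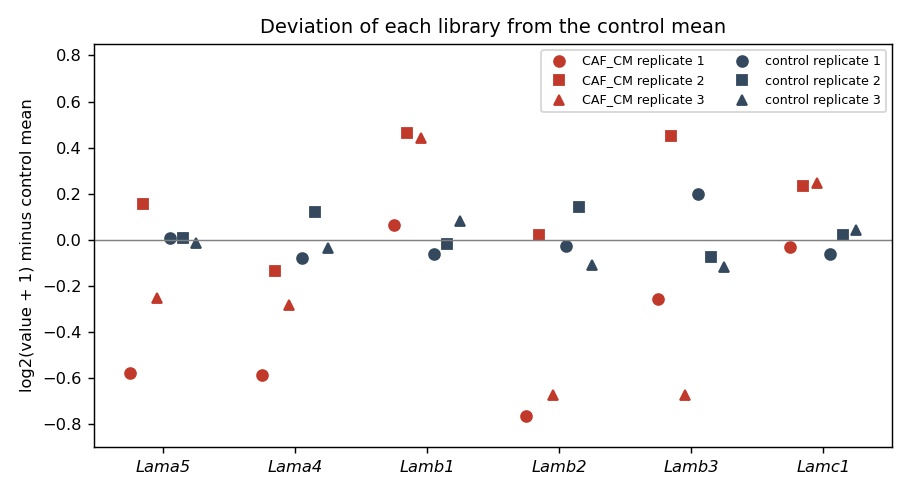
Difference in log2(value + 1) between each library and the mean of the 3 control libraries (vertical axis) for the 6 tested chains, CAF_CM in red and control in dark blue. CAF_CM replicate 2 (red squares) is the highest treated library for 5 of the 6 chains, and for Lamb1 and Lamc1 no treated library falls below -0.0329.

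Lama5 is a long gene product, with a longest annotated transcript of 11388 bases, longer than 98.8% of the genes tested, at 59.9% G and C. The part of length and base composition in its values was not tested by itself. With each library corrected for length and GC content by splines, the differences of Lama5 from the control mean became -0.53, -0.16 and -0.44 in CAF_CM replicates 1, 2 and 3, all below the corrected controls, and Lama5 passed the test at -0.38 (adjusted p = 0.00151). Under the same correction Lamb2 passed at -0.54 (adjusted p = 0.0122), Lama4 remained lower at -0.43 and Lamb1 remained higher at 0.26, and Lamc1 was at 0.0407. The median log2 fold change of all genes was 0.0336 with the correction and 0.00459 without it.

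Per length of the longest transcript, the chains fell into an abundant and a scarce set in both groups. The level of Lama5 was 248 ± 63.6 normalized counts per kb in CAF_CM and 283 ± 2.67 in control libraries. Lamc1 had 311 ± 32.9 normalized counts per kb in CAF_CM and 280.0 ± 10.7 in control libraries, and Lamb1 had 270 ± 40.0 and 214 ± 11.0 in the same groups. The order in CAF_CM libraries was Lamc1, Lamb1 and Lama5, neighbours whose ranges overlapped. In control libraries it was Lama5, Lamc1 and Lamb1, where Lama5 and Lamc1 overlapped and Lamb1 lay below both. The scarce chains followed in the order Lama4, Lamb3 and Lamb2, at 52.4 ± 8.11, 43.0 ± 17.5 and 22.6 ± 7.23 normalized counts per kb in CAF_CM libraries. They stood at 65.7 ± 4.88, 45.8 ± 5.63 and 30.6 ± 2.79 in control libraries, where no neighbours overlapped, whereas in CAF_CM libraries the ranges of Lama4 and Lamb3 and of Lamb3 and Lamb2 did.

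Lama5 made up 82.3% ± 1.56 of the summed level per kb of Lama4 and Lama5 in CAF_CM and 81.2% ± 1.08 in control libraries. The alpha chains thus kept nearly the same proportion in each library, from 80.0% to 84.1%. Among the beta chains, Lamb2 took 6.41%, 7.98% and 5.63% of the summed beta level in CAF_CM libraries. It took 10.4%, 11.7% and 9.54% in control libraries, and the ranges did not overlap. These shares were not tested, and Lamb2 itself did not pass the test. The sum is mostly Lamb1, which was higher in CAF_CM libraries, so the share of Lamb2 depends on Lamb1 too. Lamb1 took 80.6% ± 5.02 in CAF_CM and 73.6% ± 2.50 in control libraries, and the ranges overlapped. With the length of all annotated exons joined in place of the longest transcript, the share of Lama5 was 90.3% in CAF_CM and 89.6% in control libraries and that of Lamb2 9.86% and 15.2%, and Lamb1 ranked below Lama5 and Lamc1 in both groups. Among the scarce chains Lamb3 then ranked above Lama4, at 31.6 and 26.2 normalized counts per kb in CAF_CM and 33.7 and 32.9 in control libraries, and neighbours overlapped in both groups. The order within the scarce set therefore depends on the length used in both groups. Within the abundant set it does so in CAF_CM libraries only.

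**Figure D3:**
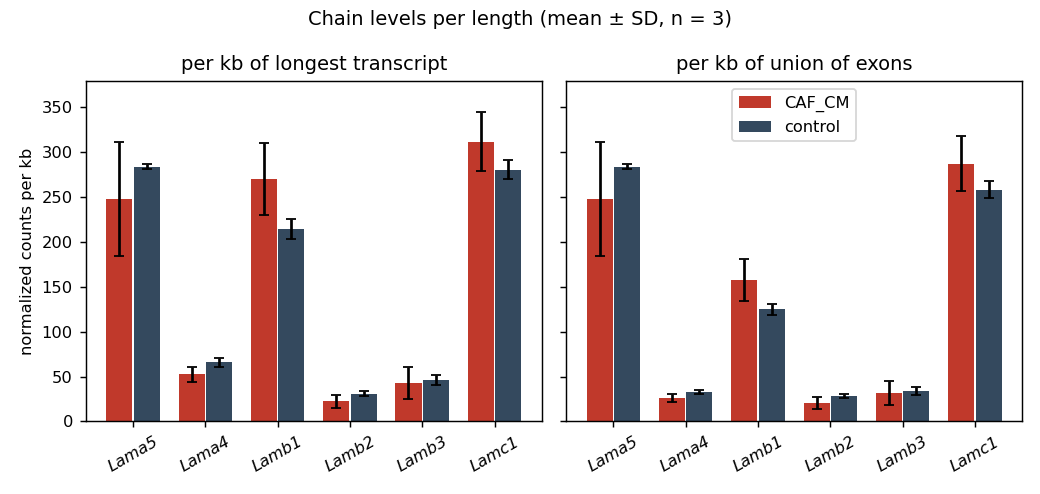
Normalized counts per kb (bars from 0, mean ± SD, n = 3) of the 6 tested chains in CAF_CM (red) and control (dark blue) libraries, with the longest transcript (left) or all annotated exons joined (right) as the length. Lama5, Lamb1 and Lamc1 stand above Lama4, Lamb2 and Lamb3 with either length, and Lamb1 is lower with the joined exons.

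A ratio of chains within a library does not depend on the scaling of that library. Lama5 stood at 1.67, 2.11 and 1.61 times the normalized count of Lamb1 in CAF_CM libraries, against 2.74, 2.66 and 2.44 times in control libraries. All CAF_CM ratios lay below all control ratios, a log2 difference of -0.55 (exact two-sided permutation test, p = 0.1, adjusted over the 5 ratios p = 0.167). With 3 libraries against 3 this p of 0.1 is the smallest the test can give. Lama5 over Lamc1, the gamma chain it joins in laminins 511 and 521, was 1.04, 1.43 and 1.07 in CAF_CM libraries and 1.59, 1.50 and 1.45 in control libraries. Again no treated library reached the controls (log2 difference -0.37, exact permutation p = 0.1, adjusted 0.167), although CAF_CM replicate 2 came close.

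Lama5 over Lamb2 was 21.4, 20.6 and 25.2 in CAF_CM and 19.2, 17.1 and 20.1 in control libraries, higher in each treated library (log2 difference 0.25, exact permutation p = 0.1, adjusted 0.167). Lama5 over Lama4 was 8.20, 9.98 and 8.32 in CAF_CM libraries and 8.66, 7.54 and 8.27 in control libraries, with overlapping ranges (log2 difference 0.11, exact permutation p = 0.5, adjusted 0.625). Lama5 over Lamb3 also overlapped between the groups, at 11.7, 11.8 and 19.5 in CAF_CM and 12.8, 15.4 and 15.6 in control libraries (log2 difference -0.0645, exact permutation p = 0.8, adjusted 0.8).

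**Figure D4:**
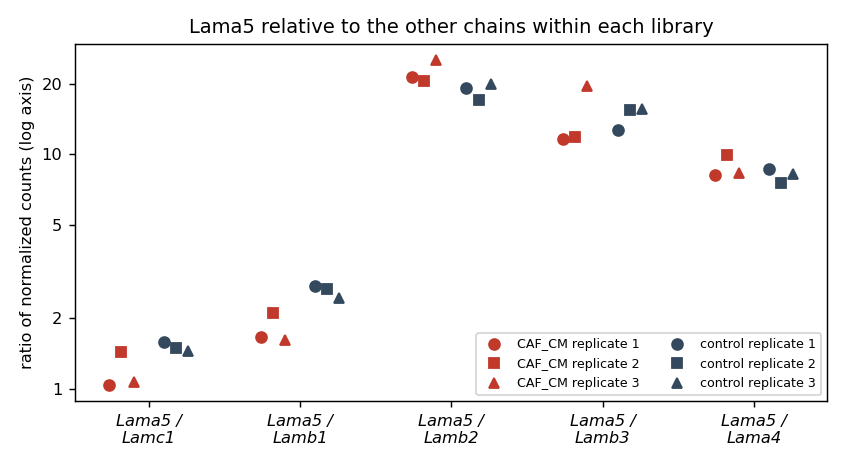
Ratio of the normalized count of Lama5 to that of each other tested chain within each library (vertical log axis), CAF_CM in red left of control in dark blue. The CAF_CM ratios to Lamb1 lie between 1.61 and 2.11, under the control ratios of 2.44 to 2.74, and those to Lama4 overlap.

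The genes whose library profile was most like that of Lama5 were found by the root-mean-square difference, over the 6 libraries, in log2 deviation from the control mean, among 10371 genes with a mean of at least 100 normalized counts. The closest was Hspg2, at 0.0420 log2 units. Hspg2 encodes perlecan, a heparan sulfate proteoglycan of basement membranes, and had 1863, 3255 and 2485 normalized counts in CAF_CM libraries, against 2838, 2774 and 2805 in control libraries. Like Lama5, it was low in CAF_CM replicates 1 and 3 and above the controls in replicate 2. Next came Uvssa, of transcription-coupled DNA repair, at 0.0648, Unc13a, of synaptic vesicle priming, at 0.0666, Helz2, a helicase coactivator, at 0.0694, and Abca1, a cholesterol exporter, at 0.0719. Their longest transcripts measure 7326 to 14187 bases, against a median of 3002 over the genes tested. After the correction for length and GC content, Hspg2 differed from Lama5 by 0.0294 and the other 4 by 0.0561 to 0.0661. The correction takes like amounts from genes of like length and GC content, such as Hspg2 and Lama5, so it could hardly part them. These genes were chosen for closeness in the same libraries, and no ranking was made after the correction. Among the chains, Lama4 was closest to Lama5 (0.13, rank 129), followed by Lamb2 (0.21), Lamb3 (0.26), Lamc1 (0.31) and Lamb1 (0.41). Lamb1 and Lamc1 differed from each other by 0.13.

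A list of genes described as binders of laminin, main or minor, had 17 tested members. Of these 4 were called higher and 4 lower, where 18.3% and 16.1% of all genes were. Their median log2 fold change was -0.15 against 0.00459 for all genes. Binders called lower numbered 7 without CAF_CM replicate 2 and 3 without control replicate 3, while those called higher stayed at 4. Over all genes, those called lower went from 2602 to 2786 and 1723 in the same fits. Itga4, the integrin chain of the series title, best known for binding fibronectin and VCAM1, had 156, 132 and 157 normalized counts in CAF_CM libraries, against 69.3, 75.5 and 77.5 in control libraries. The groups lay well apart, and Itga4 rose by 0.99 log2 units (SE 0.12, adjusted p = 1.90e-04). The related chain Itga9 rose by 0.90, the heparan sulfate proteoglycan gene Gpc1 by 0.26 and Rpsa, a ribosomal protein also described as a laminin-binding protein, by 0.24. Rpsa has many pseudogene copies that can share reads, so its value is uncertain. The genes that fell were Itga2, a chain of a collagen and laminin receptor, at -0.90, Itgav at -0.27, and the syndecan genes Sdc2 at -0.57 and Sdc4 at -0.31.

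The main receptors of alpha 5 laminins did not pass the test. Itga6, a chain of the laminin-binding integrins, averaged 6427 ± 471 normalized counts in CAF_CM and 7099 ± 246 in control libraries. Its log2 fold change was -0.15 (95% interval -0.27 to -0.0181, adjusted p = 0.0736). Its CAF_CM libraries all lay below the controls, narrowly at 6891 against 6893 normalized counts. The groups did not overlap for 47.7% of all genes tested. Itga3, which joins Itgb1 in an alpha 5 laminin receptor, was at -0.0851 (adjusted p = 0.557) and Itgb1 at -0.0527 (adjusted p = 0.422). Bcam, the Lutheran glycoprotein, which binds the alpha 5 chain, averaged 1118 ± 160 normalized counts in CAF_CM and 1108 ± 27.3 in control libraries (95% interval of the log2 fold change -0.18 to 0.19). Dag1, the precursor of dystroglycan, was at -0.16 (95% interval -0.32 to 0.0117, adjusted p = 0.138), with 2658, 3402 and 2910 normalized counts in CAF_CM libraries and 3206, 3381 and 3356 in control libraries. Its order over the treated libraries was that of Lama5. Several other receptors shared this order, Itga3 among them, and others, such as Itga6 and Bcam, did not.

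Basement membrane partners of laminin gave 2 rises and 2 falls among 21 tested, 19.0% of them against 34.4% of all genes, with a median log2 fold change of -0.0391. Fbln2, fibulin 2, a binder of laminin short arms, fell by 0.66 log2 units (adjusted p = 0.00242) to 657, 1019 and 705 normalized counts in CAF_CM libraries, against 1190, 1264 and 1240 in control libraries. Col18a1, the source of endostatin, fell by 0.30, while the collagen IV gene Col4a2 (0.23) and Fbln1 (0.17) rose. The linkers between the laminin and collagen IV networks did not pass the test, with Nid1 at 0.50 (adjusted p = 0.0865), Nid2 at 0.14 and the perlecan gene Hspg2 at -0.18. Agrn, agrin, which binds the laminin coiled coil, was at -0.14 (adjusted p = 0.265). It had 2156, 2980 and 2651 normalized counts in CAF_CM libraries and 2817, 2798 and 2893 in control libraries. Among the treated libraries it was highest in CAF_CM replicate 2, as were most of the partners tested. Over all genes tested, 35.0% were highest in that library, and the reason was not tested. Without that library 6 partners were lower and 1 was higher. Partners called higher numbered 4 without CAF_CM replicate 1, and 0 without any single control library, with library totals or with DESeq2. Over all genes, those called higher went from 2953 to 3509 without CAF_CM replicate 1, and to between 1868 and 2087 without a control library. They numbered 2231 with library totals and 2452 with DESeq2.

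Of 14 tested genes that help build the laminin-binding sugar chain of dystroglycan, matriglycan, 7 fell and 1 rose, against 16.1% lower and 18.3% higher over all genes, with a median log2 fold change of -0.21. Pomgnt2, which extends the O-mannose that carries the chain, had 301, 339 and 272 normalized counts in CAF_CM libraries, against 394, 422 and 399.8 in control libraries, and fell by 0.42 log2 units (adjusted p = 0.00416). The groups were well separated. The O-mannosyltransferase genes Pomt1 and Pomt2 fell by 0.25 and 0.28, Pomgnt1 by 0.22 and the mannose kinase gene Pomk by 0.28. Dpm1 and Dpm3, subunits of the synthase of the mannose donor, fell by 0.39 and 0.33. B3galnt2, which extends the glycan at its base, rose by 0.25. The falls numbered 4 without control replicate 1 or 3 and 3 without control replicate 2. Over all genes, those called lower went from 2602 to 1659, 1715 and 1723 without control replicates 1, 2 and 3. The rise was not called with DESeq2, with library totals, or without CAF_CM replicate 2 or 3 or control replicate 2 or 3.

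A list of proteases that may act on laminins, directly or not, had 7 tested members. Of these 4 fell and 0 rose by limma, against 16.1% lower and 18.3% higher over all genes. Their median log2 fold change was -0.34. Bmp1, a tolloid protease that trims laminin and procollagen chains, had 1284, 1257 and 1286 normalized counts in CAF_CM libraries, against 1951, 2006 and 1974 in control libraries. It fell by 0.63 log2 units with no overlap (SE 0.0472, adjusted p = 1.23e-05). The lysosomal cathepsin genes Ctsb and Ctsl fell by 0.31 and 0.34 and the membrane serine protease gene Hpn by 0.42. Adamts1 was at 0.13 (adjusted p = 0.0632), and at an unadjusted p under 0.05 it was the single protease that was higher. In a fit with a separate weight for each group, and without CAF_CM replicate 2, 1 protease rose. Of 7 tested genes of netrins and other proteins with laminin-type short-arm domains, 1 fell and 1 rose, 28.6% of them against 34.4% of all genes. Ntn1, netrin 1, fell by 0.34. Megf10, an engulfment receptor, rose by 2.12 log2 units, at low levels of 16.7 ± 3.66 normalized counts in CAF_CM and 3.42 ± 2.48 in control libraries. It reached the filter value of 10 only in CAF_CM libraries, so it was tested only through the group where it was high. Control libraries held 2, 2 and 6 of its reads, and the size of its rise is uncertain.

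**Figure D5:**
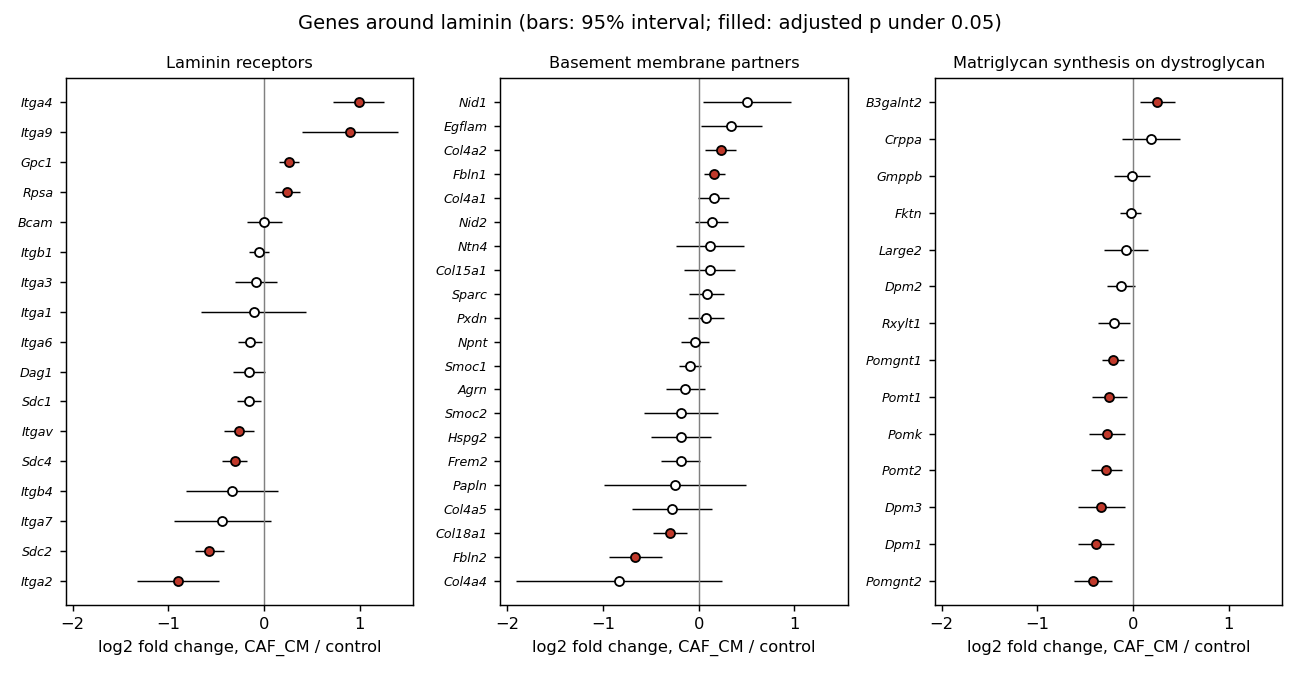
Log2 fold change of CAF_CM over control (horizontal axes, with 95% intervals) for tested laminin receptors, basement membrane partners and genes of matriglycan synthesis, filled where the adjusted p is under 0.05. Itga4 stands highest among the receptors at 0.99, and 7 of 14 matriglycan genes are filled on the left of 0.

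The cell type labels were set against marker genes. All 13 acinar markers had a row and were tested, Ctrb1 the most abundant. Of these 7 fell and 2 rose, against 16.1% lower and 18.3% higher over all genes, and their summed level was 43084 to 50058 normalized counts in CAF_CM and 73888 to 76291 in control libraries. Laminins are abundant in fibroblasts too. Of 12 fibroblast markers 8 had a row, with summed levels of 3165 to 3649 normalized counts in CAF_CM and 3515 to 3710 in control libraries, most of it Pdgfrb at 3016 normalized counts in CAF_CM and 3254 in control libraries. Col1a1 averaged 12.5 normalized counts in CAF_CM and 9.09 in control libraries, Col1a2 rose by 0.48 log2 units and Dcn fell by 0.93. Of 7 endothelial and 8 immune markers, 3 each had a row, with sums of at most 191 and 99.7 normalized counts in CAF_CM and 226 and 107 in control libraries. The part of the acinar fall and of other cell types in the chain values was not tested.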

How the data were processed

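Total RNA from 3 CAF_CM and 3 control samples was sequenced from TruSeq libraries, per the labels' protocols. FastQC, DESeq2 and hg19, a human build, are named, per the submitters' processing notes, although the symbols are those of mouse. The aligner, counting program, strand setting and mouse build are not given in the sources used here. Values are deposited as normalized signal, which the whole-read steps show to be counts scaled by 1 factor per library. All values (100%) in each library were whole multiples, within 0.001 of a read, of the worth of 1 read, and reads were recovered from them. Rows with no symbol (168, 0.153% to 0.261% of reads) were left out.

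The test was limma 3.58.1 (R 4.3.3) with a variance trend on log2(value + 1), over 16169 genes that reached 10 in 3 or more libraries, with Benjamini-Hochberg adjustment and a threshold of 0.05. Fold changes are CAF_CM over control on that scale, which understates changes of low genes. Alternatives used edgeR 4.0.16 (2888 genes higher and 2682 lower) and DESeq2 1.42.0 on recovered reads, other scalings, pseudocounts and filters, a replicate block, group weights, leaving out each library, and a spline correction for the length and GC content of the longest GENCODE transcript, found for 97.5% of genes. Joined exon length was added after seeing the data. On simulated counts with 200 changed genes among 16169, limma called 50 of 50 genes raised and 47 of 50 lowered by 1 log2 unit, 39 and 34 of 50 at 0.5, and 2 of 15969 unchanged genes. Every simulated gene had the common spread of its group (8.23% in CAF_CM and 2.20% in control libraries), and the lowest genes were not among those changed. The chains varied more than this in CAF_CM libraries, so these rates do not describe them.

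Named genes were all laminin chains, called members of lists of receptors, partners, matriglycan synthesis, short-arm proteins and proteases, and the 5 profiles closest to Lama5. Members named without a call were chosen after their values were seen. Members and lists were chosen with earlier results of these data known, and a few items are not reported here. Every pair of replicates differed beyond counting noise (chi-square per gene 1.19 or more). No exon of a tested chain gene overlaps another gene in GENCODE M21.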

Additional observations from a re-analysis of the deposited data

How the results depend on the processing

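Over 16 alternatives, the log2 fold change ran from -0.42 to -0.0484 for Lama5 (past the threshold in 2), -0.44 to -0.21 for Lama4 (in 11), 0.25 to 0.45 for Lamb1 (in 13), -0.72 to -0.33 for Lamb2 (in 5), -0.47 to 0.0968 for Lamb3 (in 1) and 0.0407 to 0.24 for Lamc1 (in 2). Leaving out libraries in turn gave the ends of these ranges, except the lowest value of Lamc1, which came with the length and GC correction. That correction brought Lama5 (-0.38) and Lamb2 (-0.54) past the threshold. Lamb2 also passed with library totals as the only scaling (-0.52, adjusted p = 0.0483) and with group weights (-0.47, adjusted p = 0.0319). Hspg2 was 0.0198 without CAF_CM replicate 1. For Lamc1, leaving out libraries gave 0.101 to 0.24. The ratio of Lama5 to Lamb3 ran from -0.31 with a library left out and turned to 0.0633 without CAF_CM replicate 1 and 0.0507 without replicate 2, and the other ratios kept their direction in all 10 alternatives. Called receptors passed in at least 15 of the 16 alternatives, whereas Col4a2, Pomt1 and Dpm3 passed in 9. The cause of these changes was not tested.

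Genes called numbered 2953 higher and 2602 lower. With a library left out, 1868 to 3509 were higher and 1659 to 2943 lower. With library totals as the only scaling 2231 were higher and 3179 lower.

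Deviations of same-numbered libraries had correlations of 0.0703, 0.0291 and 0.0305, so the numbers were not taken to pair the libraries, although every library correlated best with its own number. With the replicate block 3166 genes were higher and 2755 lower, Lamb2 (-0.47, adjusted p = 0.0149) and Lamc1 (0.15, adjusted p = 0.0489) passed the threshold, and Lama5 had an adjusted p of 0.0914. Counts of Lama3 and Lamc3 were too low to show a difference at this depth. The planned RefSeq transcript lengths were not run, since the reference used here gives none.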
